A study of Homo sapiens with 10 samples.

Results

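Open acetylated enhancers are described here in MDAMB231, a human breast cancer cell line with a mesenchymal-like form. They were chosen by measured values: an H3K4me1 peak was taken when it shared at least 1 base with an H3K27Ac peak and with a FAIRE peak, shared no base with an H3K4me3 peak, had no annotated transcription start site within 5 kb of its bounds and lay on chromosomes 1 to 22. Of 26771 H3K4me1 peaks, 8514 met these conditions. The cells were grown in DMEM with 5% FBS and had no treatment. Chromatin immunoprecipitation with sequencing was performed for H3K4me1, H3K4me3 and H3K27Ac, and FAIRE-seq was performed on crosslinked chromatin, with 2 samples for each assay and an input sample for each method. Each assay is represented by a single list of peaks from combined samples, so no peak carries an error between replicates, and all intervals given are 95% intervals, by Wilson for a share, that cover counting error over loci or genes only. Depth cannot be read from the lists.

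H3K4me1 is a methylation of lysine 4 on histone H3 that is common at enhancers, the sequences that raise transcription of a gene from a distance. H3K27Ac, an acetylation deposited by CREBBP and EP300, accompanies H3K4me1 at many enhancers that are in use, whereas H3K4me3 marks most active promoters. FAIRE recovers DNA that is free of crosslinked protein, and so reports where nucleosomes are depleted and factors such as AP-1, TEAD or RUNX can bind. No enhancer activity was measured here, and the word enhancer stands for the combination of marks.

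FAIRE peaks locate the open base pairs inside broad marked regions. Sequences are shown for the tallest FAIRE peak in the enhancer groups of NPAS2, GNG12, GADD45A and AKR1E2, among those with the highest counts near a gene. GNG12 and GADD45A share this peak, so there are 3 sequences. Each is 300 bases of GRCh37 (hg19), plus strand, centred on the FAIRE peak, with capitals for matches to TGANTCA, the short form of the AP-1 motif. Near NPAS2 the window chr2:101519375-101519674, in an intron of NPAS2, held 1 match.
NPAS2: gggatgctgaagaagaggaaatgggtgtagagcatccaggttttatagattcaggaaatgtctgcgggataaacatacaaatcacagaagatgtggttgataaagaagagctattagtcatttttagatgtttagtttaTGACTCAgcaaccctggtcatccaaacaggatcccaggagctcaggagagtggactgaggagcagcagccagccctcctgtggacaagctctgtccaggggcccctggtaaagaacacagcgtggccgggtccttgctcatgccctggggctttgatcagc
The window chr1:68215902-68216201 lies in an intron of GNG12 and held the tallest FAIRE peak among the enhancers within 100 kb of GNG12 and among those of GADD45A. It had no match.
GNG12 and GADD45A: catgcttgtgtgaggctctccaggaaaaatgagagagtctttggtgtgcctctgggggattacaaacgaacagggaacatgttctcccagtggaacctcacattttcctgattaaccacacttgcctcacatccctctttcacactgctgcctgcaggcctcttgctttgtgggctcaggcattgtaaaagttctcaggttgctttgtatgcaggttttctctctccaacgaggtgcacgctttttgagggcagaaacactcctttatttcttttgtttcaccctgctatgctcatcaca
Downstream of the AKR1E2 start, outside protein-coding genes, the window chr10:4891810-4892109 had no match.
AKR1E2: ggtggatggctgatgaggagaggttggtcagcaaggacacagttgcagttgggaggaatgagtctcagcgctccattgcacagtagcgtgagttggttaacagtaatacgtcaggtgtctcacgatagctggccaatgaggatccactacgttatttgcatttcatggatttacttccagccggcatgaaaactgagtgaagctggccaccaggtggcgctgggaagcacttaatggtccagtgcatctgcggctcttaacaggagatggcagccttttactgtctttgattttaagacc

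The 3 enhancers with the tallest FAIRE peaks of all are added for comparison, a choice made after the values were seen. The tallest, at chr6:42306550-42306849 in an intron of TRERF1, which encodes a zinc finger regulator, held 1 match.
TRERF1: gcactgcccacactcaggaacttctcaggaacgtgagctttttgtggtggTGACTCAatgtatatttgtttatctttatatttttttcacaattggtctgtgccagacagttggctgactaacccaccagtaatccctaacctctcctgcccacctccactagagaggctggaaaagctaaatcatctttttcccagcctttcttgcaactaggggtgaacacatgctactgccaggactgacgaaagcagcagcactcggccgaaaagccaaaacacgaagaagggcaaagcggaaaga
The next, at chr3:193589983-193590282, lies outside protein-coding genes and held 1 match. The coding start nearest to this enhancer, that of the Notch target HES1, was 261 kb away.
HES1 distal: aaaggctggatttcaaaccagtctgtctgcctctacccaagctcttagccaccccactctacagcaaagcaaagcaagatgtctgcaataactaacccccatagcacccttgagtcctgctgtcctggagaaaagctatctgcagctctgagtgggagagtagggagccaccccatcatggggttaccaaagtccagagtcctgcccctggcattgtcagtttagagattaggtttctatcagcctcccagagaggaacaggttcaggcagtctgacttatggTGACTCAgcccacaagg
In an intron of SVIL, which encodes the actin-binding protein supervillin, the window chr10:29947991-29948290 held 2 matches.
SVIL: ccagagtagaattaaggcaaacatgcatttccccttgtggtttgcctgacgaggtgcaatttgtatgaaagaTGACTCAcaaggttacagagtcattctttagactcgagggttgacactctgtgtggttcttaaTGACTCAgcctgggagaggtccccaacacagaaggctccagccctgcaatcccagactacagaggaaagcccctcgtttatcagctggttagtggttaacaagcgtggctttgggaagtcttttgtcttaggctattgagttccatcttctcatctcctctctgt
A match describes the letters only, and whether a factor bound there was not measured.

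The conditions removed peaks in steps. On chromosomes 1 to 22 there were 26355 H3K4me1 peaks, of which 22230 shared no base with H3K4me3. H3K27Ac was present at 15639 of these, and H3K27Ac together with FAIRE at 13157. A start site within 5 kb removed 4643 more and left the 8514 enhancers, 32.3% of the H3K4me1 peaks on these chromosomes. Among the 14703 H3K4me1 peaks that were away from start sites and without H3K4me3, the open acetylated enhancers made up 57.9% (57.1% to 58.7%). The others were 1614 acetylated peaks without FAIRE, 2054 open peaks without H3K27Ac and 2521 peaks with neither. All of these shares follow from the choice of members.

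Some enhancers lay close to the limits of the choice. The enhancer nearest to a start site, at chr5:121302675-121308757, was 5005 bp from it, while the peak at chr3:186684187-186687745 was left out with a start site at 5000 bp. An enhancer at chr3:190021365-190024727 shared only 83 bases with H3K27Ac, and a peak at chr7:124096996-124101280 was left out with an H3K27Ac peak 16 bp away. For FAIRE the fewest shared bases were 13, at chr2:39634357-39638137, and a peak at chr16:13205011-13207907 was left out with a FAIRE peak 3 bp away. Short overlaps were few, as 1 enhancer shared under 100 bases with H3K27Ac and 5 did so with FAIRE. With other distances to start sites the number of enhancers was 6478 at 10 kb and 10090 at 2 kb. The lowest H3K4me1 score among the enhancers was 50, at chr9:92169986-92173271, which is also the lowest of the list, and 2124 enhancers scored under 100.

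The open acetylated enhancers were wider than the other distal classes. Their median width was 3404 bp, with quartiles at 2584 bp and 4796 bp, against medians of 2511 bp for acetylated peaks without FAIRE, 2316 bp for open peaks without H3K27Ac and 2120 bp for peaks with neither, and 3041 bp over the whole H3K4me1 list. Because a wide peak meets other peaks more readily, width and the choice of members are linked. When the distal peaks were divided into 4 classes of equal size by width, 26.6% of the narrowest class, up to 2176 bp, were open and acetylated, and 87.9% of the widest, from 3973 bp. The H3K4me1 score, in which every 10 units stand for a p-value 10 times smaller in MACS, had a median of 165 with quartiles at 100 and 286, compared with medians of 97.5, 84.7 and 71.1 in the same order of classes. These differences are given as a description, since the members were selected on overlaps of the same peaks. Across the 8514 enhancers the H3K4me1 score and the width had a Spearman correlation of 0.66, and both are properties of the same peak call.

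**Figure D1:**
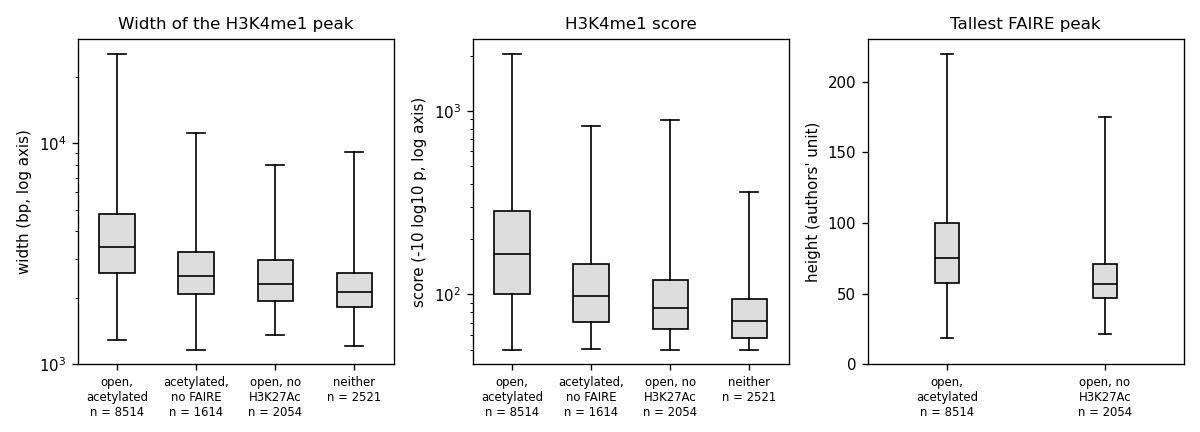
Width of the H3K4me1 peak (bp, log axis), its score (log axis) and the height of the tallest FAIRE peak it meets, for the 4 classes of distal H3K4me1 peaks without H3K4me3. Boxes show quartiles and medians, whiskers the lowest and highest values; the open acetylated class has the highest medians, 3404 bp, 165 and 75.5.

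H3K27Ac peaks covered a median of 82.4% of the H3K4me1 peak, and FAIRE peaks covered 34.7%. The lists differ in the same way over all peaks, with median widths of 2664 bp for H3K27Ac from MACS and 913 bp for FAIRE from FindPeaks, and the members were chosen by overlap with them. A single H3K27Ac peak was met by 8188 enhancers (96.2%). The highest H3K27Ac score had a median of 597, with quartiles at 213 and 1711, and 1117 enhancers (13.1%) reached 3100, where scores pile up and strength can no longer be ranked. By comparison, the acetylated peaks without FAIRE had a median H3K27Ac score of 188, and the median over all 37495 H3K27Ac peaks was 591. The centre of the tallest FAIRE peak lay inside an H3K27Ac peak at 8430 enhancers (99.0%). It fell inside the H3K4me1 peak at 8474 enhancers, and at 7597 of these (89.7%) it lay away from the outer parts of that peak, in the middle 50% of its length.

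FAIRE signal differed widely among the enhancers. Exactly 1 FAIRE peak was met by 6372 enhancers (74.8%), 2 by 1655, 3 by 370 and 4 or more by 117, with 8 as the highest number. The height of the tallest one, in the authors' unit, ranged from 18.8 to 220 with a median of 75.5. The median was 57.1 at the open peaks without H3K27Ac and 61.1 over all 46552 FAIRE peaks. The tallest is taken over more peaks in the enhancers, where the upper quartile was 2 FAIRE peaks, against 1 without H3K27Ac. What this adds to the height was not tested. Height and H3K27Ac score rose together only loosely, with a Spearman correlation of 0.36 over 8514 enhancers, and height and width had one of 0.42. The 5 tallest peaks had heights of 217 to 220. Besides those near TRERF1, HES1 and SVIL, they lay at chr11:129011268-129016673 in ARHGAP32, which encodes a GTPase-activating protein, and at chr3:189039684-189046034 in TPRG1, 303 kb from the start of TP63. The 300 bp window held 2 matches to TGANTCA in the ARHGAP32 enhancer and none in the TPRG1 enhancer, which has its centre in an exon.

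The AP-1 motif was frequent at the open centre of these enhancers. TGANTCA, which reads the same on both strands, was found within 300 bp centred on the tallest FAIRE peak in 4187 of 8514 enhancers (49.2%, 48.1% to 50.2%). In windows of the same length 1 kb to the left and right of these centres, it was found in 10.6% (9.98% to 11.3%) and 11.2% (10.6% to 11.9%). In narrow enhancers these windows reach outside the H3K4me1 peak. Among 19229 protein-coding promoters, from 250 bp before to 50 bp after the start, 6.38% held it. The sequence was not used to choose the enhancers. On single chromosomes the share ranged from 43.8% to 58.0%, and it was higher than in the windows to the side on all 22. Base composition of the windows was similar, at 42.2% G and C in the centre and 41.0% and 40.9% at the sides. Promoters had 59.4%, so motif shares in promoters come from sequence of another composition. Windows at FAIRE peaks meeting H3K4me3 had 53.4% and those at all FAIRE peaks 45.3%.

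Acetylation did not accompany a higher share of AP-1 motifs. The open peaks without H3K27Ac held TGANTCA at 51.0% (48.9% to 53.2%) of their FAIRE centres, an interval that overlaps that of the acetylated ones, and the difference was not tested. FAIRE peaks with none of the marks had a share of 36.9%, FAIRE peaks meeting H3K4me3 18.6%, and all 44702 FAIRE peaks on these chromosomes 39.2%. The enhancers were counted at their tallest FAIRE peak only. Of the 8459 peaks with none of the marks, 4509 were under 50 in height. The unmarked peaks held TGANTCA in 35.9%, 36.1%, 46.9%, 44.6% and 60.0% of the classes under 50 and from 50, 75, 100 and 150. The enhancers held it in 43.6%, 47.7%, 52.2%, 50.4% and 58.1% of the same classes. These intervals overlap from 75 upwards only. How much of the gap comes with height was not tested. Classes without FAIRE can be compared only at the centre of the H3K4me1 peak, where the share was 30% (29.0% to 30.9%) in the open acetylated enhancers, 27.7% (25.6% to 29.9%) in acetylated peaks without FAIRE and 28.9% (27.2% to 30.7%) in peaks with neither.

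**Figure D2:**
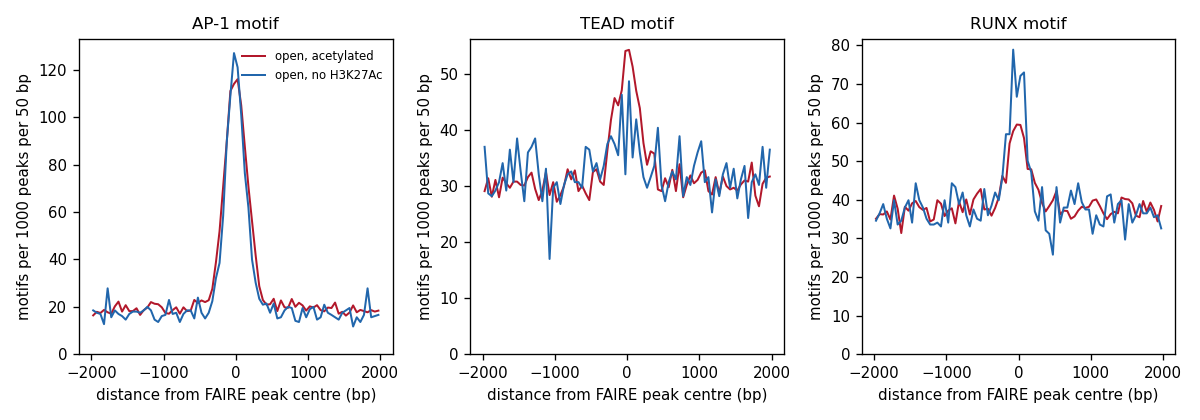
Motif matches per 1000 peaks in bins of 50 bp against the distance from the centre of the tallest FAIRE peak (bp), for open acetylated enhancers (red) and open peaks without H3K27Ac (blue). AP-1 is TGANTCA, TEAD is GGAATG and RUNX is TGTGGT; AP-1 in red averages 112 within 100 bp of the centre and 18.9 beyond 1000 bp.

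The AP-1 matches were concentrated close to the FAIRE centre. Their frequency averaged 112 per 1000 enhancers in bins of 50 bp within 100 bp of the centre and 18.9 beyond 1000 bp, a ratio of 5.90. TEAD, GGAATG, had a ratio of 1.71 and RUNX, TGTGGT, a ratio of 1.55, while the rarer ETS letters had 2.16. TGACGTCA, the CRE, had a ratio of 2.42 from averages of only 0.411 and 0.170 per 1000. In the open peaks without H3K27Ac the AP-1 ratio was 6.63, so the concentration is not particular to the acetylated class. In the 300 bp windows 3274 enhancers held 1 AP-1 match, 793 held 2 and 120 held 3 or more. The middle base was C or G, as in the TGACTCA form printed above, in 71.5% of 5233 matches at the centre, and in 51.8% of 1975 matches in the windows to the side.

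Taller FAIRE peaks carried the motif somewhat more often. The share was 43.6% (40.9% to 46.3%) for 1283 enhancers with a height under 50 and 58.1% (52.5% to 63.4%) for the 310 at 150 or more, with 47.7%, 52.2% and 50.4% for the classes between, from 50, 75 and 100. The open peaks without H3K27Ac, which were lower in height, held it in 49.0%, 50.7%, 53.1% and 60.4% of the classes under 50 and from 50, 75 and 100, and 1 of them was at 150 or more. Within the 2142 enhancers that met more than 1 FAIRE peak, the tallest peak held TGANTCA in 47.7% (45.6% to 49.8%) and the second in 41.5% (39.5% to 43.7%), with median heights of 89.0 and 58.2. Enhancers with and without the motif were otherwise alike in position, 60.3% and 61.1% of them being in introns. Their median H3K27Ac scores were 541 with the motif and 653 without.

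Among the other motifs, searched on both strands, TEAD and ETS letters were more frequent in the acetylated class and RUNX, FOX and CEBP letters in the class without H3K27Ac. GGAATG was found at 24.8% (23.9% to 25.7%) of the centres of open acetylated enhancers and 20.7% (19.0% to 22.5%) of those without H3K27Ac, against 12.8% of promoters. CCGGAA, the ETS core, was found at 3.43% (3.06% to 3.84%) and 2.14% (1.60% to 2.86%), and in 19.5% of promoters. TGTGGT was found at 28.0% (27.1% to 29.0%) and 32.2% (30.2% to 34.2%), and in 12.4% of promoters. TGTTTAC, a forkhead motif, was found at 6.71% (6.19% to 7.26%) and 9.10% (7.94% to 10.4%), and in 2.82% of promoters. TTGCNNAA, for CEBP factors, was found at 18.9% (18.1% to 19.7%) and 21.7% (19.9% to 23.5%), and in 9.07% of promoters. These pairs of intervals do not overlap, and the differences were not tested.

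Some motifs differed by few percentage points between the centre and the windows to the side. AGATAA, for GATA factors, was found at 19.6% of centres and at 21.4% and 21.1% to the sides, with 8.79% in promoters. The CEBP letters were found at 16% and 16.4% of the windows to the side. CANNTG, the E-box of factors such as SNAI2 and ZEB1, is so short that it was found at 82.0% of centres, 78.5% and 79.4% of the windows to the side and 67% of promoters. GGGANTTTC, for NF-kB, was found at 1.53% of centres, 1.19% and 0.916% of the windows to the side and 1.31% of promoters. CCACNAGG, a core of the CTCF motif, was found at 3.98% of centres and at 2.76% and 3.09% to the sides. Its share was 5.08% in promoters and 9.01% in FAIRE peaks with none of the marks. GGGCGG, bound by SP1, was found at 3.05% of centres, 3.16% and 3.21% to the sides and 52.4% of promoters. TGACGTCA, the CRE, was found at 0.247% of centres, 0.117% and 0.106% to the sides and 2.28% of promoters. TEAD letters were about as frequent with AP-1 as without it, in 23.9% of the 4187 enhancers with TGANTCA and 25.6% of the 4327 without.

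**Figure D3:**
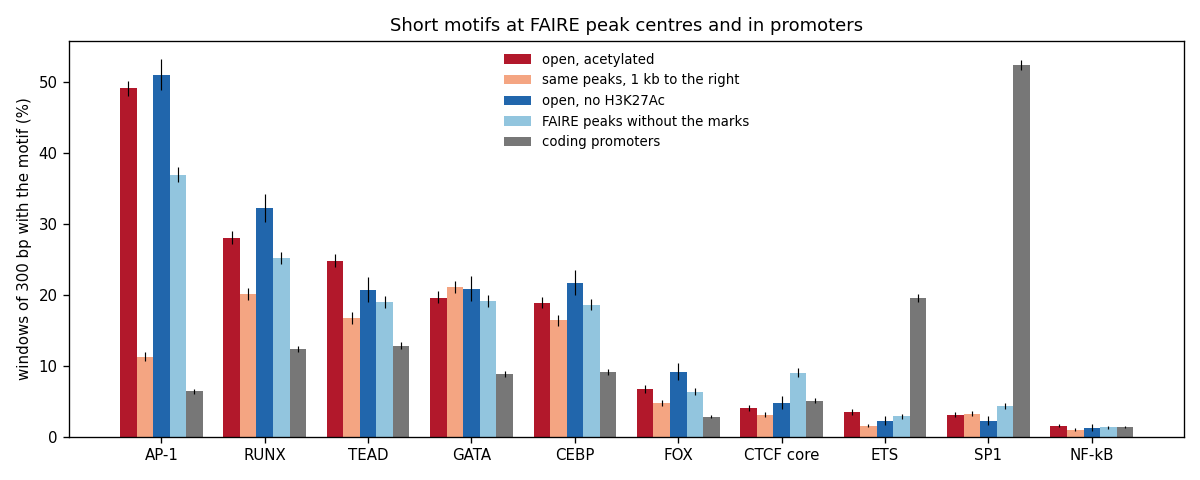
Share of 300 bp windows holding each motif (%), with 95% Wilson intervals, at the FAIRE centres of open acetylated enhancers, 1 kb to their right, at open peaks without H3K27Ac, at FAIRE peaks with none of the marks and in coding promoters. AP-1 is at 49.2% of the open acetylated centres and 6.38% of promoters, while SP1 is at 3.05% and 52.4%.

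Most of the enhancers were in introns. By the annotation at the centre of the H3K4me1 peak, 5167 (60.7%, 59.6% to 61.7%) lay in an intron of any annotated gene, 203 (2.38%) in an exon and 3144 (36.9%) outside genes. Acetylated peaks without FAIRE were in introns in 63.8% (61.4% to 66.1%), open peaks without H3K27Ac in 59.3% (57.1% to 61.4%) and peaks with neither in 65.3% (63.5% to 67.2%). With protein-coding genes only, 46.0% of the enhancers were in introns. The nearest protein-coding start was at a median of 40686 bp, and for 2382 enhancers (28.0%) it was over 100 kb away.

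The number of enhancers per Mb varied between chromosomes. It was 2.96 over chromosomes 1 to 22, 3.87 on chromosome 4, 3.68 on chromosome 3 and 0.676 on chromosome 19, where 40 enhancers were found. On chromosome 19, 51 of the 243 H3K4me1 peaks were away from start sites and without H3K4me3. Of those 51 peaks, 78.4% were open and acetylated, against 53.4% on chromosome 12.

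Enhancers often had another one nearby. Within 12500 bp, 2595 (30.5%, 29.5% to 31.5%) had another open acetylated enhancer. The other classes had one of these within the same distance at 31.2% of acetylated peaks without FAIRE, 21.9% of open peaks without H3K27Ac and 26.7% of peaks with neither. Joined at 12500 bp, the enhancers formed 7052 groups, of which 5919 held 1 enhancer and 245 held 3 or more. The largest, with 7, spanned chr11:29313708-29356618, with no coding gene across it and the nearest start, of the potassium channel gene KCNA4, at 681959 bp. Groups of 6 lay in GNG12 at chr1:68172136-68227624 and in TMEM132D at chr12:130014453-130057616. These 3 groups were picked by size after the values were seen.

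Genes were ranked by the enhancers within 100 kb of the 5′ end of the gene. Of 19229 protein-coding genes, 5606 (29.2%) had at least 1, and this share describes all genes. The median was 0 and the highest number was 10, with 787 genes at 3 or more. Above the tie at 6, which 33 genes shared, 16 genes had 7 to 10 enhancers. NPAS2, a circadian transcription factor and partner of BMAL1, had the most with 10. The order depends on the start used: with any transcript start NPAS2 still had 10, while RUNX1, named here after its value was seen, had the most with 18, against 2 from the 5′ end of its gene. The 10 near NPAS2 spanned chr2:101346482-101523467, 5 in introns of the gene and 5 upstream of its start. Their tallest FAIRE heights ran from 37 to 116 and their H3K27Ac scores from 308 to 3131. The enhancer at chr2:101514094-101523467, 77.5 kb from the start, had the highest FAIRE height and H3K4me1 score of the group, 116 and 731.

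On chromosome 1, GNG12, which encodes a G protein gamma subunit, and GADD45A, a stress response gene, had 8 enhancers each and shared 3. The group of GNG12 spanned chr1:68199438-68357569, and that of GADD45A spanned chr1:68091315-68227624. The shared enhancer at chr1:68212648-68221114 had a FAIRE height of 113 and an H3K27Ac score of 3100. It lies 78.0 kb from the start of GNG12 and 61.8 kb from that of GADD45A, so the lists do not say which gene it belongs to. FAIRE heights ran from 64.1 to 113 near GNG12 and from 69.7 to 113 near GADD45A.

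PSD3, which encodes an exchange factor for ARF6, had 8 enhancers at chr8:18890974-19047302, with FAIRE heights of 51.1 to 130. The one with the tallest FAIRE peak, at chr8:18990615-18994749, held 2 matches to TGANTCA in the 300 bp at the centre of that FAIRE peak, and its sequence is not shown. When any transcript start of PSD3 was used, the number was 12. WDFY3, an autophagy scaffold gene, had 8, with H3K4me1 scores of 55.2 to 266, compared with 81.9 to 731 near NPAS2. Of the genes with 7, AKR1E2, which encodes an aldo-keto reductase, was placed first by the summed FAIRE height, a rule set after the counts were seen. Its enhancers spanned chr10:4732664-4911208, had FAIRE heights of 46.5 to 138 and included a peak with an H3K4me1 score of 1002. AKR1E2 itself had no H3K4me3, H3K27Ac or FAIRE peak within 1 kb of its start.

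The other genes with 7 enhancers were of many kinds. MED27 is a Mediator subunit, FRMD5 a FERM domain protein, CDK6 a cyclin D-dependent kinase and ATXN1 a gene of spinocerebellar ataxia. TNFSF18 is the GITR ligand, IL1A an inflammatory cytokine and MUSK a receptor kinase of the neuromuscular junction. ALG14 acts in N-glycosylation, FOXB1 is a forkhead factor and DOCK9 is an activator of CDC42. The H3K4me1 score reached 1387 near ATXN1, 1033 near TNFSF18 and 926 near CDK6, and at most 184 near FOXB1. FAIRE heights reached 144 near MED27 and at most 84.6 near IL1A. MUSK had 12 enhancers when any transcript start was used.

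Many enhancers nearby did not always go with a marked start. Among the 16 genes, 12 had an H3K4me3 peak within 1 kb of the start, 13 an H3K27Ac peak and 9 a FAIRE peak. The 4 without H3K4me3 were AKR1E2, FOXB1, MUSK and TNFSF18, and IL1A had H3K4me3 with a score of 126 but no H3K27Ac. Over all 19229 coding genes, 62.4% had H3K4me3 at the start, 58.2% H3K27Ac and 30.7% FAIRE.

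The share of genes with H3K4me3 at the start was higher where enhancers were nearby. It was 59.5% (58.7% to 60.4%) for the 13623 genes with none, 68.7% (67.4% to 70.0%) for 4819 genes with 1 to 2, 73.0% (69.7% to 76.1%) for 738 genes with 3 to 5 and 73.5% (59.7% to 83.8%) for 49 genes with 6 to 10, while no gene had more. Genes with at least 1 enhancer were at 69.4%, 9.82 percentage points (8.35 to 11.3) above the genes without. H3K27Ac at the start rose from 54.6% to 66.1%, 70.7% and 77.6% over the same classes, and FAIRE from 28.8% to 35.2%, 36.7% and 51.0%. Neighbouring genes share enhancers and are not independent.

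For H3K4me3 and H3K27Ac, other distal H3K4me1 peaks gave a similar order. Genes with 0, 1 to 2 and 3 to 5 of these had H3K4me3 in 60.8%, 67.1% and 70.9%, and the 13 genes with 6 to 10 in 84.6% (57.8% to 95.7%). H3K27Ac at the start was found in 56.1%, 64.0%, 69.7% and 76.9% (49.7% to 91.8%) over the same classes. FAIRE was found there in 29.4%, 34.3%, 42.9% and 30.8% (12.7% to 57.6%). Where open acetylated enhancers were the sole distal H3K4me1 class within 100 kb, 69.4% (67.8% to 70.9%) of 3266 genes had H3K4me3. The corresponding share was 67% (63.3% to 70.5%) for acetylated peaks without FAIRE, 64.4% (60.5% to 68.1%) for open peaks without H3K27Ac and 62.1% (58.6% to 65.4%) for peaks with neither. In the same order of classes, H3K27Ac at the start was 66.4%, 63.8%, 60.0% and 58.7%, and FAIRE 35.3%, 36.3%, 32.5% and 31.6%. Of the 11347 genes with no distal peak of any class, 58.3% (57.4% to 59.2%) had H3K4me3 at the start. Whether gene density moves with the distance to start sites used in the choice was not measured, and its part was not tested.

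**Figure D4:**
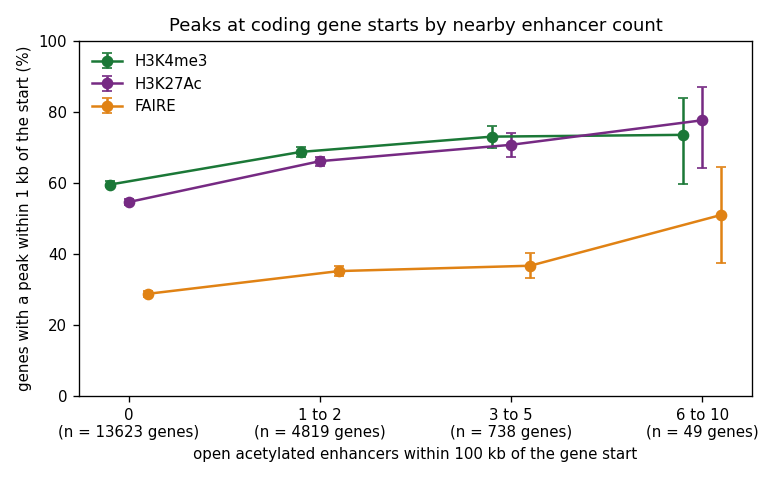
Share of protein-coding genes with an H3K4me3, H3K27Ac or FAIRE peak within 1 kb of the start (%), by the number of open acetylated enhancers within 100 kb; points are shares, bars 95% Wilson intervals. H3K4me3 goes from 59.5% of genes with none to 73.5% of genes with 6 to 10.

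Lists of genes grouped by function were described by the same count. Over 222 listed genes on these chromosomes, 111 (50%) had at least 1 enhancer within 100 kb, with a median of 0.5, against 29.2% and a median of 0 for all coding genes. The median of the listed genes moved under all 9 alternatives, to 0 in 6 and to 1 in 3, with 71 to 142 of the 222 genes having an enhancer. Of the 222 genes, 173 had H3K4me3 at the start, against 11998 of all 19229 coding genes. The lists are small and serve as a description.

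The list of caveolae genes, the hyaluronan receptor gene CD44 and some annexin and S100 genes had the highest median, 2.5, with 7 of 10 genes having an enhancer. CD44 had 5, CAV1 and CAV2, the caveolin genes, had 4 each, and ANXA1 and CAVIN2 had 3. CAV1 and CAV2 shared none of theirs, because the annotated CAV2 gene begins far upstream at 115927434 on chromosome 7, while the CAV1 start is at 116165048. With any transcript start, CAV2 had 9. CAVIN1, CAVIN3 and S100A4 had 0. Among inflammatory cytokines and NF-kB genes, 10 of 19 had an enhancer, with a median of 1. IL1A had 7 and IL1B 5, all 5 shared with IL1A, and the chemokine gene CXCL8 and the NF-kB inhibitor NFKBIA had 4 each. BIRC3, CCL2, CSF2, CXCL2, IL11, NFKB1, REL, RELA and RELB had 0, and the NF-kB subunit gene NFKB2 had 1. With any transcript start NFKB1 had 4.

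Growth factor genes were uneven. Among receptor tyrosine kinases and ligands 7 of 16 had an enhancer, and the median was 0. The receptor genes EGFR and MET had 5 each, and the EGFR ligand genes AREG and TGFA had 4 each. AXL, EPHA2, EPHB2, ERBB3, ERBB4, FGFR1, KIT, NRG1 and PDGFRB had 0. With any transcript start NRG1 had 8, the most in this list, and ERBB4 and KIT had 1 each. In the TGF-beta pathway 9 of 15 genes had one, with SMAD3 and TGFBR2 at 4, TGFBR1 at 3 and LTBP1 at 2, and INHBA, LTBP2, SKIL, SMAD4, TGFB1 and TGFB3 at 0. With any transcript start LTBP1 had 7 and TGFB3 2. Among YAP and TEAD targets and factors 7 of 13 had one. CCN1, a matricellular YAP target, had 6, the coactivator gene YAP1 4, AMOTL2 3 and WWTR1, the gene of TAZ, 2, while AJUBA, AXL, CCN2, LATS2, TEAD2 and TEAD4 had 0.

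Genes in the EMT, mesenchymal, integrin and laminin, and urokinase lists had at most 3 enhancers each, counted from the 5′ end of the gene. The shares with at least 1 were 77.8%, 60.0%, 70.6% and 41.7% in that order, against 29.2% of all coding genes. Of all 19229 coding genes, 787 had 3 or more. These differences were not tested. In the list of EMT transcription factors 7 of 9 genes had an enhancer, with PRRX1 and SNAI2 at 3, FOXC1 at 2 and SNAI1 at 1, and FOXC2 and TWIST2 at 0. Mesenchymal structure and matrix genes had one in 15 of 25, with the collagen genes COL1A2 and COL5A1 at 3 and the cadherin gene CDH2 and COL6A3 at 2. COL6A3 had 7 with any transcript start. Within this list, COL1A1, COL3A1, COL6A1, COL6A2, FN1, SPARC, TAGLN, ACTA2, MYL9 and CDH11 had 0. Integrins and laminins had one in 12 of 17, with ITGB3 and LAMB1 at 3 and ITGA2 and ITGA6 at 2, and ITGA3, ITGA5, ITGB1, ITGB4 and LAMA5 at 0. In the urokinase system and proteases 5 of 12 genes had one, with TIMP3 at 3, the tissue factor gene F3 at 2 and PLAU at 1. ADAMTS1, MMP1, MMP14, MMP3, MMP9, PLAUR and TIMP2 had 0.

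Epithelial, luminal and basal lists also held genes with an enhancer, beside the 29.2% of all coding genes. In the epithelial adhesion list 8 of 19 genes had one, with the desmosomal cadherin gene DSG2 at 3, EPCAM and OCLN at 2 and CDH1, which encodes E-cadherin, at 1 without H3K4me3 at its start. CDH3, CLDN7, CRB3, DSC2, ESRP1, ESRP2, GRHL2, OVOL1, PKP3, RAB25 and TJP3 had 0, of which CDH3 and GRHL2 had 1 each with any transcript start. Luminal breast genes had one in 4 of 14, with GATA3 at 3, MLPH and SPDEF at 2 and ELF5 at 1, and ERBB2, ESR1, FOXA1, KRT18, KRT19, KRT8, PGR, TFF1, TFF3 and XBP1 at 0. In the list of basal keratins and TP63, TP63 had 5 and COL17A1 2, and KRT14, KRT15, KRT17, KRT5, KRT6A and KRT6B had 0.

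The genes of AP-1 subunits had at most 2 enhancers each. In this list 6 of 12 genes had one, with BATF3, FOSL2 and JUN at 2 and ATF3 at 1, and FOS, FOSL1, JUNB, JUND, MAFF and MAFK at 0, while all 12 had H3K4me3 at the start. The list of enzymes that write, erase or read enhancer marks also holds MED1, a Mediator subunit gene. In that list 3 of 10 genes had an enhancer, CREBBP and HDAC3 with 2 and KDM1A with 1. This is close to the 29.2% of all coding genes, and the mean was 0.500 against 0.465. EP300, HDAC1, HDAC2, KMT2C, KMT2D and MED1 were among those with 0. Cytosolic ribosomal protein genes, a list of genes active in every cell, had one in 10 of 25, with RPL37A at 3 and RPL5, RPL7 and RPS23 at 2. RPL11, RPL13A, RPL23, RPL27, RPL4, RPLP0, RPLP1, RPS14, RPS15, RPS18, RPS19, RPS2 and RPS6 were among those with 0, and 24 of the 25 had H3K4me3 at the start.

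**Figure D5:**
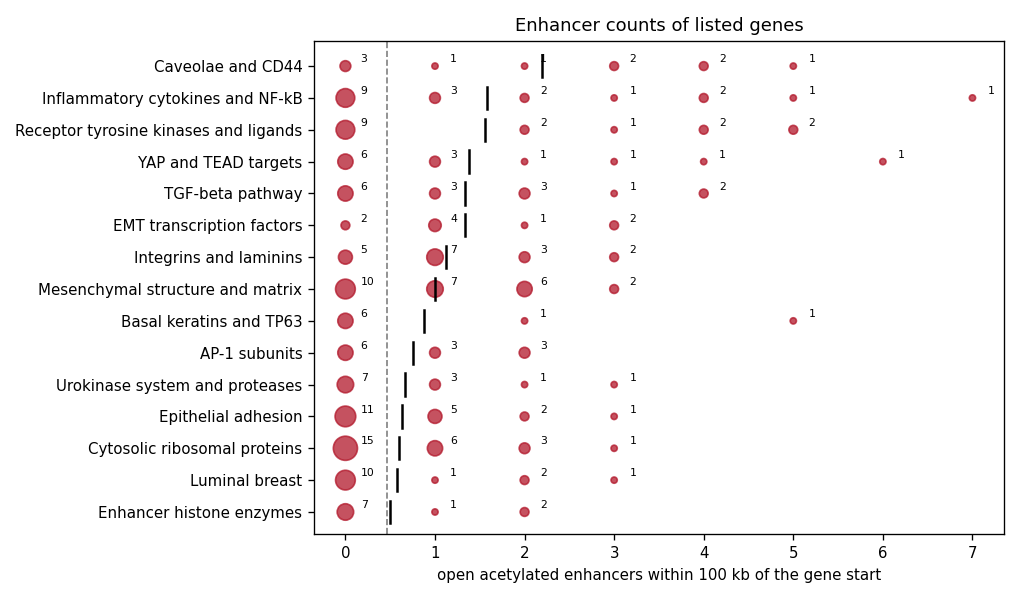
Number of open acetylated enhancers within 100 kb of the start for the genes of each list; the area of a point and the number beside it give how many genes have that count, the black bar is the mean of the list and the dashed line the mean of all 19229 protein-coding genes, 0.465. Caveolae and CD44, which includes annexin and S100 genes, has a mean of 2.20 and enhancer histone enzymes, which includes MED1, 0.500.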

How the data were processed

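MDAMB231 peaks came from 4 lists, each made by the authors from 2 combined samples. Per the methods of the study, the authors used BWA for alignment to GRCh37, filtered duplicated and poorly mapped reads, and took histone peaks from MACS, with input as control, and FAIRE peaks from FindPeaks. For histone peaks the score, as deposited, is the MACS p-value on a log10 scale, multiplied by 10 with its sign turned. The deposited FAIRE signal is the height of a peak, with no scaling given in the sources used here.

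Overlaps were computed with numpy 2.4.6 and pandas 2.3.3 and checked against bedtools on simulated intervals. Start sites, genes and exons were those of GENCODE release 44 mapped to GRCh37, and sequence was read from GRCh37 with pysam 0.24.0. Bounds in the lists were taken as counted from 0, as in BED, and are printed as counted from 1; the lists have no header that states this. Wilson intervals were computed with scipy 1.17.1 and figures with matplotlib 3.10.9. No p-value was computed, since each assay had 1 list. Genes named were the 20 highest by enhancers within 100 kb, leaving out a tie at the last rank that took them past 30. From each list, up to 4 genes with the most and those with 0 were named. Some genes, such as CAVIN2, NFKB2 and RUNX1, are named beyond this rule. Regions named were the tallest FAIRE peak in the 6 highest loci, the 5 tallest of all and those beside each threshold. Members and lists were chosen with earlier results of these data known. Alternatives were stricter peaks, larger overlaps, other distances to start sites and H3K4me3, other windows and other gene annotation. A few listed genes and 1 of these regions are not reported here.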

Additional observations from a re-analysis of the deposited data

How the results depend on the processing

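No paired analysis was possible because the lists pool their samples, and for the same reason no sample could be left out. The number of enhancers was between 5919, with FAIRE peaks no lower than the median, and 10568, with start sites of protein-coding genes only, against 8514. The difference in H3K4me3 between genes with and without an enhancer was 8.78 to 9.94 percentage points over 10 alternatives. The share with TGANTCA was 51.0% with the taller FAIRE peaks, 36.5% in 200 bp, 63.8% in 500 bp and 30% at the centre of the H3K4me1 peak. A longer window holds more matches, and in windows 1 kb to the side the shares were 7.22% in 200 bp and 17.5% in 500 bp. The share within 12500 bp of another enhancer was 26.8% with p at or under 1e-10, 24.0% with the taller FAIRE peaks and 34.6% with protein-coding start sites. It was 18.8% within 5 kb and 43.0% within 25 kb. The share in introns was 59.5% with the taller FAIRE peaks, 58.2% with no start site within 10 kb and 46.0% with protein-coding genes only. The median for listed genes, 0.5 because 111 of 222 had an enhancer, moved under all 9 alternatives: to 0 with p at or under 1e-10, taller FAIRE peaks, 500 shared bases, 10 kb from start sites, 2 kb from H3K4me3 or 50 kb windows, and to 1 with protein-coding start sites, 200 kb windows or all transcript starts. Depth and the 2 samples' agreement cannot be judged from combined lists.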

Other observations

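Chromosome X was outside the choice of members. Of its 412 H3K4me1 peaks, 176 met the other conditions for an open acetylated enhancer.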
